A study of Mus musculus with 16 samples.

Results

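The genes described are the translation initiation factors of mouse astrocytes. They were taken by name as every gene of the deposited expression table whose symbol begins with Eif1 to Eif6, without the Eif2ak genes, which encode kinases of eIF2. This gave 50 genes of the 16707 in the table, and all 50 had a position in the GRCm39 annotation. The cells were primary astrocytes from brains of pups, P6 by the labels and methods and younger by the study's own results text, enriched by binding to the astrocyte surface antigen ACSA-2, from C57BL6J wild-type (WT) mice and from mice that lack Nlrx1 in every cell (Nlrx1-/-, called KO in the labels). The methods give the same strain for the Nlrx1-/- mice. Nlrx1 encodes a NOD-like receptor that is found at mitochondria. Each genotype was sampled as 4 litters, and each litter gave a well kept for 24 h in vehicle and a well kept for 24 h with 500 ng/mL LPS (lipopolysaccharide, from the outer membrane of bacteria) plus 10 ng/mL of the cytokine IFNγ. This gave 4 libraries in each of 4 groups, WT vehicle, WT LPS + IFNγ, Nlrx1-/- vehicle and Nlrx1-/- LPS + IFNγ, and 16 libraries in all. The wells of a litter came from the same set of mice. In the fits of the responses, p-values measure the spread of the change between litters. The genotype fits have no litter term, so they count the wells of a litter as independent libraries. The cells had grown in culture before treatment, and which part of Nlrx1 is deleted is not given in the sources used here.

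Translation of most mRNAs starts when the small ribosomal subunit, carrying the initiator tRNA, is brought to the 5′ cap and scans to a start codon. eIF2 brings the initiator tRNA together with GTP, and eIF2B reloads eIF2 with GTP. eIF3 is the large scaffold on the small subunit, eIF4F binds the cap and unwinds the mRNA, eIF1 and eIF1A help to choose the start codon, and eIF5 and eIF5B end the process when the large subunit joins. Supply of eIF4E, the cap-binding part of eIF4F, is held back by the 4E-binding proteins. Phosphorylation of eIF2 in stressed or infected cells lowers overall translation and favours that of Atf4. These controls act on the proteins, and the libraries measured mRNA only.

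Salmon assigned between 27259420 and 43752903 read pairs to a library. Nlrx1 was between 16.8 and 21.7 CPM (reads of a gene scaled to the size of the library) in the WT libraries and between 2.07 and 7.75 CPM in the Nlrx1-/- libraries. All 9 astrocyte markers examined were in the table, and their summed level was 5831 to 9846 CPM in WT libraries and 4860 to 7605 CPM in Nlrx1-/- libraries. Of 7 microglial markers only P2ry12 was in the table, at 0.0481 to 1.78 CPM, while the oligodendrocyte lineage summed to 1551 to 2990 CPM, largely Olig1. Neuron markers summed to 14.5 to 91.1 CPM, fibroblast and mural markers to 12.9 to 60.6 CPM, ependymal markers to 71.6 to 237 CPM, proliferation genes to 1040 to 2065 CPM, and neither of the 2 endothelial markers was in the table. The Nlrx1-/- litters 2 and 4 stood apart from the other litters. Under LPS + IFNγ they had 41.6 and 43.2 CPM of Ddit3, a stress-induced transcription factor, against 9.49 to 14.5 CPM in the other 6 litters, and they had the lowest Aqp4 of the 8 LPS + IFNγ libraries, at 152 and 181 CPM. The RNA of the Y chromosome also split the litters unevenly. Ddx3y, Kdm5d and Uty together were at 38.7 to 69.8 CPM in WT litters 1 to 3 and at 127 to 139 CPM in Nlrx1-/- litter 4, and at 0.094 to 2.83 CPM in WT litter 4 and Nlrx1-/- litters 1 to 3. The genotype results below are therefore given also with a Y-linked term and without these 2 Nlrx1-/- litters, both chosen after the data were seen.

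Per unit of transcript length, initiation factors of WT vehicle cells spanned a wide range. On the TPM scale, Eif4a1, the mRNA helicase of eIF4F, was at 568 ± 49.7 (SD, n = 4) and Eif5a, a factor that carries the unusual amino acid hypusine and keeps ribosomes moving, at 518 ± 94.2. Eif1 stood at 442 ± 18.5 TPM, Eif5, which triggers GTP hydrolysis by eIF2, at 194 ± 4.31, and Eif1ax at 72.1 ± 6.84. The genes of 1 complex did not share 1 level. Of the eIF2 subunits, the alpha subunit Eif2s1, the target of the eIF2 kinases, was at 43 ± 5.95 TPM, the beta subunit Eif2s2 at 101 ± 7.21, and the X-linked gamma subunit Eif2s3x at 206 ± 18.9. Within eIF2B, the gamma subunit Eif2b3 was lowest at 12.1 ± 1.0 TPM and the catalytic epsilon subunit Eif2b5 was highest at 49.1 ± 2.52. Of the eIF3 subunits, the core subunit Eif3a was at 144 ± 6.54 TPM and Eif3f at 467 ± 11.8, and the copy Eif3j2 was near 0, at 0.490 ± 0.358. Eif4g1, the scaffold of eIF4F, was at 112 ± 14.4 TPM, Eif4ebp1, a 4E-binding protein, at 41.1 ± 3.51, and Eif6, which keeps the large subunit from joining too early, at 58.4 ± 5.21. Eif4e at 75.4 ± 20.3 TPM and Eif5b at 7.17 ± 1.42 were undercounted here, because some of their transcripts could not be paired with a symbol (their summed counts fell below the deposited values by up to 2.78 and 2.30 on the log2 scale). The same holds to a lesser degree for Eif4g1, by up to 0.56, and Eif3h, by up to 0.25. For Eif4e3 the summed counts lay from 0.29 below to 0.76 above the deposited values on the log2 scale, depending on the library. Eif4e3 was 1 of the lowest, at 1.68 ± 0.242 TPM. Sequence is shared closely by Eif1a and Eif1ax, by Eif1 and Eif1b, by Eif2s3x and Eif2s3y, and by Eif3j1 and Eif3j2, so reads may be split between the members of these pairs. In addition, 15 members shared exon bases with a gene on the opposite strand in an unstranded library, among them Eif2a, Eif2s1, Eif3j1, Eif4a2, Eif5a and Eif5b.

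RefSeq promoter windows (GRCm38.p6) were at hand for 39 of the 50 members. They were searched over the 250 bases before each transcript start for CACGTG, the E-box read by MYC and TFE family factors. The motif reads the same on both strands. It was found in 9 of 39 members (23.1%), against 9.26% of the 12847 genes of the expression table with a window, and members with more than 1 window had more bases searched. TGATGNAAT, an element of ATF4 with C/EBP, and TGACGTCA, the CRE, were in 0 members on either strand (0.553% and 2.85% of those genes). The palindromic NRF1 motif was in Eif3k only, where it did not overlap the E-box (1.61% of those genes). The E-box holders were Eif1b, Eif3f, Eif3k, Eif4a1, Eif4e, Eif4g1, Eif4h, Eif5a and Eif5a2. They include 1 gene for each of the 3 eIF4F parts, while the windows of the relatives Eif4a2, Eif4e2 and Eif4g3 lack the motif. The windows of Eif4a1, Eif4e, Eif4g1 and Eif5a are shown because these 4 rose with LPS + IFNγ in both genotypes, as described next, with the E-box in capitals. Eif4a1 is at chr11:69672424-69672673 on the minus strand, with the E-box starting 189 bases before the transcript start. Eif4e is at chr3:138527018-138527267 on the plus strand, with E-boxes 228 and 64 bases before the start. It is 1 of 2 windows of that gene, and the other lacks the motif. Eif4g1 is at chr16:20672477-20672726 on the plus strand, with the E-box 54 bases before the start. Eif5a is at chr11:69921387-69921636 on the minus strand, with the E-box 74 bases before the start. It is 1 of 6 windows of that gene, of which 3 hold the motif. The E-box 185 bases before another start is the same site.
Eif4a1: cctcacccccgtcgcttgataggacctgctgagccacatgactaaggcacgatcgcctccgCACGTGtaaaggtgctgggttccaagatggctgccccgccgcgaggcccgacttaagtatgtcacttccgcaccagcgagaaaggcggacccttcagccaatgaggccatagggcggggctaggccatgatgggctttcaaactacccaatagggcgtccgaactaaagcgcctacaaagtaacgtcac
Eif4e: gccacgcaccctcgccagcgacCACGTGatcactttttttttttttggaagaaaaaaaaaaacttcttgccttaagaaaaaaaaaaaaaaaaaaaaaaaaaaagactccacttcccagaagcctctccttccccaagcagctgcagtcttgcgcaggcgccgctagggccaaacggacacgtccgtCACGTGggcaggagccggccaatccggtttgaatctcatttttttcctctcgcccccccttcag
Eif4g1: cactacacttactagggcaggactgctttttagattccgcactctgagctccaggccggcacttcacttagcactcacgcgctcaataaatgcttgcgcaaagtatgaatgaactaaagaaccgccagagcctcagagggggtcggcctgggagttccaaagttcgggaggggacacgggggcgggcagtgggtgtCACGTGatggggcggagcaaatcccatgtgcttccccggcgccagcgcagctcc
Eif5a: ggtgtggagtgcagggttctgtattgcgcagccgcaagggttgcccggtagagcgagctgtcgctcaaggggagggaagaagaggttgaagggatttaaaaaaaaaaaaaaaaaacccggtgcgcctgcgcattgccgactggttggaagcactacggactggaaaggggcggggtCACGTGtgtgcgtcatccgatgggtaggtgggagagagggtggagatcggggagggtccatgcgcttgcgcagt

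In WT astrocytes LPS + IFNγ raised 20 of the 50 initiation factor genes and lowered 3, at a Benjamini-Hochberg adjusted p below 0.05 in limma with litters as blocks, against 24.9% of all genes called higher and 21.9% called lower. Eif4e3, a little-used relative of the cap-binding protein, rose 9.72-fold. The eIF4F core rose, with Eif4a1, Eif4g1 and Eif4e each up 1.31-fold to 1.49-fold, together with Eif5a (2.14-fold), Eif4ebp1 (1.72-fold) and Eif2s1 (1.48-fold). Eif4b, a helper of the helicase eIF4A, fell, as did Eif2a, an alternative carrier of initiator tRNA, and Eif4ebp2, the 4E-binding protein common in brain. The median log2 difference of the 50 genes was 0.14, against -0.02 over all genes. Cell type markers moved with the treatment too. Of 8 oligodendrocyte lineage markers 6 were lower in WT and 7 in Nlrx1-/- cells, of 3 ependymal markers 2 were lower in each, and of 9 astrocyte markers 3 were higher and 3 lower in WT and 2 higher and 4 lower in Nlrx1-/- cells. The oligodendrocyte lineage summed to 2210 to 2623 CPM in WT vehicle and 1889 to 2156 CPM with LPS + IFNγ, and to 2457 to 2990 and 1551 to 2113 CPM in Nlrx1-/- cells. Their part in the responses was not tested.

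**Figure D1:**
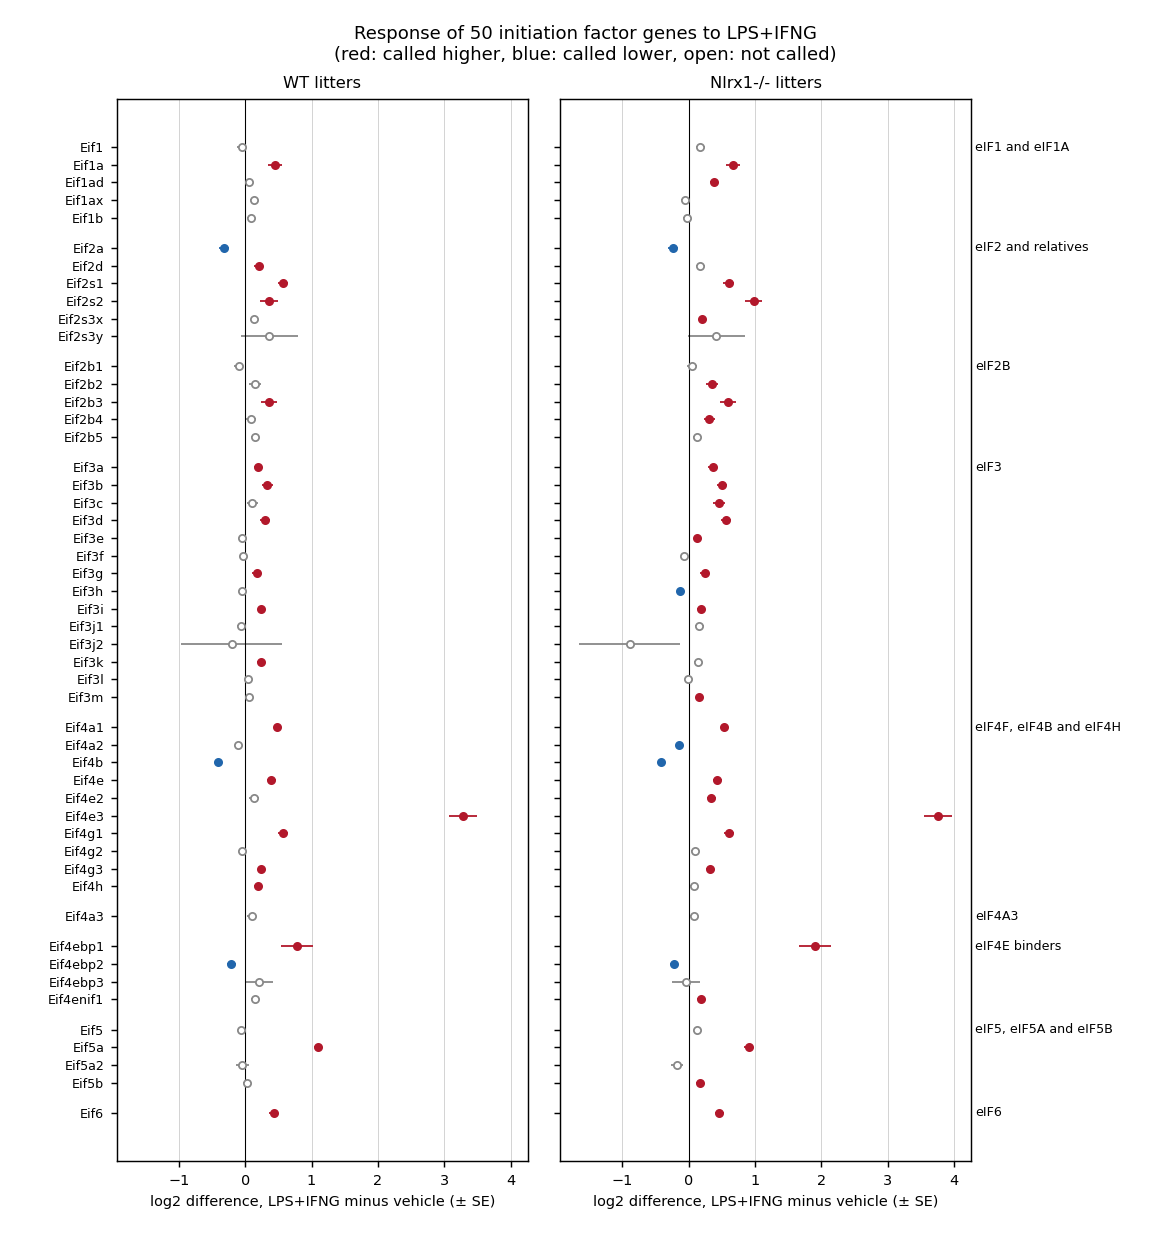
Log2 difference (± SE) between LPS + IFNγ and vehicle for each of the 50 genes, in WT litters on the left and Nlrx1-/- litters on the right, grouped by complex, with filled points for genes that passed an adjusted p of 0.05 in limma. Eif4e3 lies far to the right in both genotypes, Eif4b, Eif2a and Eif4ebp2 lie left of 0 in both, and Eif4ebp1 lies further right in Nlrx1-/- litters.

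Eif4e3 had few reads in vehicle and many more with LPS + IFNγ. In WT vehicle the log2 CPM was 0.92, 1.17, 1.42 and 1.16 in litters 1 to 4, and with LPS + IFNγ it was 4.50, 4.68, 4.16 and 4.46. In Nlrx1-/- litters it was 1.10, 0.08, -0.08 and 0.64 in vehicle and 4.19, 4.21, 4.30 and 4.09 with LPS + IFNγ. Treated and untreated libraries were thus far apart in all 8 litters, with a log2 difference of 3.28 ± 0.21 (SE) in WT (limma, adjusted p = 1.6e-07) and of 3.76 ± 0.21 in Nlrx1-/- cells (limma, adjusted p = 4.4e-08). The vehicle levels rest on 55.4 to 126 read pairs a library. Over the other fits the log2 difference lay between 2.83 and 3.46 in WT and between 3.05 and 3.99 in Nlrx1-/- cells. It passed in each of them. In treated wells nearly all of its level lay on a single RefSeq transcript, which rose from 1.05 to 1.67 TPM in WT vehicle to 10.8 to 15.7 TPM with LPS + IFNγ.

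Eif5a showed the second largest rise in WT cells. Its log2 CPM was 8.46, 8.05, 8.07 and 7.92 in WT vehicle and 9.36, 9.21, 9.32 and 9.01 in WT LPS + IFNγ, and the groups did not overlap. The log2 difference was 1.10 ± 0.07 (limma, adjusted p = 8.3e-08). In Nlrx1-/- litters the values were 8.49, 8.88, 8.46 and 8.37 in vehicle and 9.41, 9.62, 9.33 and 9.47 with LPS + IFNγ, a log2 difference of 0.91 ± 0.07 (limma, adjusted p = 4.2e-07).

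The eIF4F genes moved by less. Eif4g1 was at log2 CPM 8.69, 8.49, 8.59 and 8.55 in WT vehicle and 9.37, 9.10, 9.18 and 8.95 in WT LPS + IFNγ, and at 8.79, 9.21, 8.87 and 8.65 against 9.46, 9.59, 9.40 and 9.51 in Nlrx1-/- litters. It rose in every litter, by 0.57 ± 0.07 in WT (limma, adjusted p = 4.2e-05) and by 0.61 ± 0.07 in Nlrx1-/- cells (limma, adjusted p = 2.1e-05). Eif4a1 was at 8.95, 8.83, 8.81 and 8.68 against 9.47, 9.33, 9.30 and 9.09 in WT and at 9.14, 9.64, 9.10 and 9.11 against 9.75, 10.04, 9.54 and 9.79 in Nlrx1-/- litters, a rise of 0.48 ± 0.05 and 0.53 ± 0.05. The helicase rose in all 8 litters. Eif4e was at 6.72, 6.63, 6.51 and 6.46 against 7.15, 6.99, 6.94 and 6.82 in WT and at 6.81, 7.30, 6.93 and 6.72 against 7.31, 7.59, 7.17 and 7.41 in Nlrx1-/- litters, a rise of 0.39 ± 0.07 and 0.43 ± 0.07. Eif4e rested on the deposited gene values, since with the summed counts, which miss a part of its reads that differs between libraries (0.23 to 2.78 on the log2 scale), edgeR and DESeq2 gave differences of -0.33 and -0.36 in WT. The other scaffold Eif4g3 was called higher in both genotypes, and Eif4g2, which works without the cap-binding protein, in neither.

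**Figure D2:**
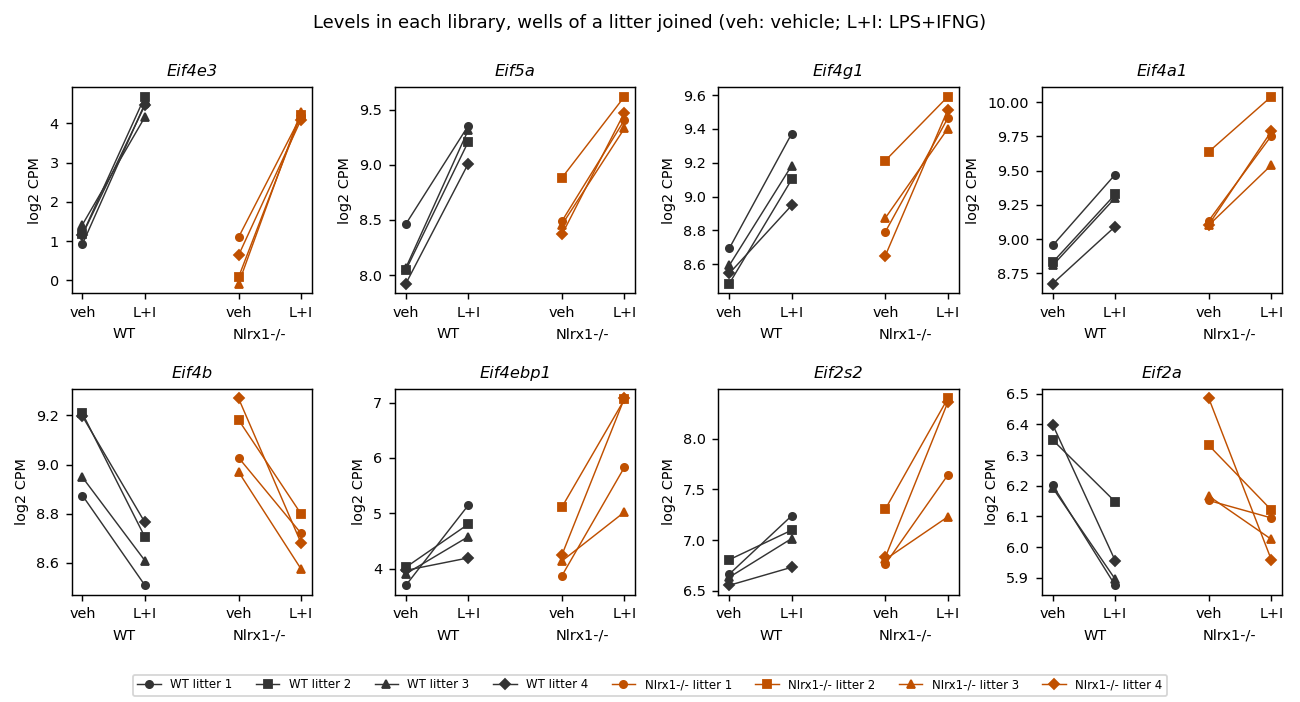
Log2 CPM of 8 genes in each of the 16 libraries, with the vehicle and LPS + IFNγ wells of a litter joined by a line, WT in black and Nlrx1-/- in orange. Lines of Eif4e3, Eif5a, Eif4g1 and Eif4a1 climb and those of Eif4b and Eif2a descend in all 8 litters, and the treated wells of Nlrx1-/- litters 2 and 4 are the 2 highest for Eif4ebp1 and Eif2s2.

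Eif4b fell in all 8 litters. Its log2 CPM was 8.87, 9.21, 8.95 and 9.20 in WT vehicle and 8.51, 8.71, 8.61 and 8.76 in WT LPS + IFNγ, and 9.03, 9.18, 8.97 and 9.27 against 8.72, 8.80, 8.58 and 8.68 in Nlrx1-/- cells. The log2 difference was -0.41 ± 0.05 in WT (limma, adjusted p = 4.8e-05) and -0.42 ± 0.05 in Nlrx1-/- cells (limma, adjusted p = 3.4e-05). Eif2a was at 6.20, 6.35, 6.19 and 6.40 in WT vehicle and 5.88, 6.15, 5.90 and 5.96 in WT LPS + IFNγ, which did not overlap, a difference of -0.32 ± 0.07 (limma, adjusted p = 0.0036). In Nlrx1-/- litters Eif2a was at 6.15, 6.33, 6.17 and 6.48 in vehicle and 6.10, 6.12, 6.03 and 5.96 with LPS + IFNγ, a difference of -0.23 ± 0.07 (limma, adjusted p = 0.018). Both falls were seen in every litter, although in Nlrx1-/- litter 1 Eif2a dropped by 0.06 only. Eif4ebp2 went from 6.38, 6.44, 6.46 and 6.43 to 6.37, 6.17, 6.07 and 6.26 in WT and from 6.54, 6.61, 6.37 and 6.55 to 6.39, 6.28, 6.28 and 6.24 in Nlrx1-/- cells (log2 difference -0.21 ± 0.07 and -0.22 ± 0.07, limma adjusted p = 0.020 and 0.014).

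By complex, 6 of 14 eIF3 genes were called higher in WT and 0 lower, led by Eif3b (0.33 ± 0.08) and Eif3d (0.30 ± 0.08), both core or cap-proximal subunits. Of 6 eIF2 genes 3 were higher, Eif2s1, Eif2s2 and Eif2d, and 1 lower, Eif2a. Of 5 eIF2B genes 1 was higher, Eif2b3, and of 5 eIF1 and eIF1A genes also 1, Eif1a. Of 10 genes of eIF4F, eIF4B and eIF4H 6 were higher and 1 lower. Eif2s1 went from 5.92, 5.70, 5.84 and 5.49 in WT vehicle to 6.5, 6.27, 6.44 and 6.01, and from 5.95, 6.57, 6.10 and 5.85 to 6.64, 6.97, 6.48 and 6.79 in Nlrx1-/- cells (0.57 ± 0.08 and 0.61 ± 0.08). Eif6 was higher (0.43 ± 0.07), lying between 5.05 and 5.33 in WT vehicle and between 5.48 and 5.84 with LPS + IFNγ, and the exon junction helicase Eif4a3 was called in neither genotype. In all 4 WT litters 25 of the 50 genes were higher with LPS + IFNγ, against 31.2% of all genes, and 7 were lower, against 30.0%. At an unadjusted p below 0.05, 28 of the 50 differed and 24 were higher, against 53.5% and 27.8% of all genes.

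The small rises depended on how libraries were scaled. With quantile normalization 10 of the 50 genes were called higher and 12 lower in WT, against 18.7% and 28.6% of all genes, so that the share raised was close to that of all genes. With each library centred on its median they were 13 and 9, against 19.5% and 28.6%. The median over all genes was -0.09 and -0.10 under these scalings. Eif4e3, Eif5a, Eif4ebp1, Eif2s1, Eif4a1 and Eif4g1 stayed higher under both. Without WT litter 2 or without WT litter 3 the calls in WT dropped from 23 to 15, all of them among the 23, while those over all genes went from 7810 to 6207 and 6301.

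In Nlrx1-/- astrocytes LPS + IFNγ raised 27 of the 50 genes and lowered 5, against 26.6% and 25.5% of all genes, and 20 of the calls were shared with WT in the same direction. The median log2 difference was 0.18. In all 4 Nlrx1-/- litters 28 genes were higher, against 29.6% of all genes, and 6 lower, against 29.0%, and at an unadjusted p below 0.05 the count was 37, with 32 higher, against 57.8% and 29.1%. Eif4ebp1, whose product binds eIF4E and keeps it from eIF4F, rose 3.74-fold and Eif2s2 1.97-fold. Of 14 eIF3 genes 8 were higher and 1, Eif3h, lower (-0.14 ± 0.05). Of 5 eIF2B genes 3 were higher, Eif2b2, Eif2b3 and Eif2b4, with 0.31 to 0.59 on the log2 scale. The lowered genes were Eif4b, Eif2a, Eif4ebp2, Eif3h and Eif4a2, the helicase paralogue that is common in neural cells. With quantile normalization the calls were 19 higher and 10 lower, against 19.9% and 31.2% of all genes. Without the 2 Nlrx1-/- litters that stood apart, 20 genes were higher and 2 lower, against 20.3% and 18.1%.

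Nlrx1-/- litters 2 and 4 had the 2 highest treated levels of Eif4ebp1 and Eif2s2. Eif4ebp1 was at log2 CPM 3.87, 5.11, 4.14 and 4.25 in Nlrx1-/- vehicle and at 5.83, 7.06, 5.02 and 7.08 with LPS + IFNγ, with litters 2 and 4 at the top. In WT it was at 3.70, 4.03, 3.91 and 3.97 in vehicle and at 5.15, 4.81, 4.58 and 4.20 with LPS + IFNγ. It rose in all 8 litters, by 0.78 ± 0.24 in WT (limma, adjusted p = 0.021) and by 1.90 ± 0.24 in Nlrx1-/- cells (limma, adjusted p = 4.7e-05), and by 1.42 ± 0.25 without Nlrx1-/- litters 2 and 4. Its call in WT held in 12 of 18 other fits, and that in Nlrx1-/- cells in 19 of 19. Eif2s2, the beta subunit of eIF2, was at 6.66, 6.81, 6.63 and 6.55 against 7.24, 7.10, 7.02 and 6.73 in WT and at 6.76, 7.31, 6.81 and 6.83 against 7.64, 8.40, 7.23 and 8.36 in Nlrx1-/- litters. Its difference was 0.36 ± 0.13 in WT (limma, adjusted p = 0.040) and 0.98 ± 0.13 in Nlrx1-/- cells (limma, adjusted p = 6.0e-05), and 0.65 ± 0.10 without litters 2 and 4. The call of Eif2s2 in WT held in 8 of 18 other fits, and that in Nlrx1-/- cells in 19 of 19. Eif4a2 was at 7.71, 7.69, 7.81 and 7.86 in Nlrx1-/- vehicle and at 7.54, 7.62, 7.66 and 7.65 with LPS + IFNγ, a difference of -0.15 ± 0.04 (limma, adjusted p = 0.012), and at 7.74, 7.70, 7.71 and 7.69 against 7.69, 7.54, 7.61 and 7.59 in WT, which did not pass.

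Whether the genotypes differ in these responses was asked with the interaction, the Nlrx1-/- response minus the WT response. It called 0 of the 50 genes and 0% of all genes in limma. An unadjusted p below 0.05 was reached by 10 genes, 9 of them with a positive interaction, against 16.7% of all genes in either direction and 6.76% positive. edgeR called 0 of the 50 and DESeq2 1, where DESeq2 called 0.714% of all genes higher and 1.32% lower. The lowest p belonged to Eif1ad, a protein with an eIF1A domain. Its log2 CPM was 5.46, 5.41, 5.38 and 5.34 against 5.54, 5.53, 5.49 and 5.25 in WT and 5.41, 5.69, 5.29 and 5.49 against 5.72, 6.10, 5.60 and 6.01 in Nlrx1-/- litters, an interaction of 0.33 ± 0.09 (limma, adjusted p = 0.17). Next was Eif2s2 with 0.62 ± 0.18 (limma, adjusted p = 0.18), and Eif4ebp1 had the largest estimate with 1.12 ± 0.35 (limma, adjusted p = 0.18). Without Nlrx1-/- litter 3, 4 of the 50 genes were called, all higher, against 2.26% of all genes higher and 2.66% lower, and without litters 2 and 4 there were 0 of either and Eif4ebp1 was at 0.64 ± 0.31.

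Between genotypes in vehicle, 0 of the 50 genes passed in limma, where 0% of all genes were called higher and 0.00599% lower. An unadjusted p below 0.05 was reached by 20 genes, 19 of them higher in Nlrx1-/- cells, against 21.1% of all genes in either direction and 11.7% higher. edgeR called 0 and DESeq2 3, where DESeq2 called 2.79% of all genes higher and 1.58% lower. In 10 of the 50 the lowest Nlrx1-/- library lay above the highest WT library, against 6.02% of all genes, and in 0 the reverse, against 3.43%. The median log2 difference was 0.16, against 0.01 over all genes, and 42 of the 50 estimates were above 0, among them those of all 14 eIF3 genes. Eif5a, with the library values given above, had the lowest p, with a log2 difference of 0.42 ± 0.12 (limma, adjusted p = 0.11). Eif4e3 followed with -0.74 ± 0.21 (limma, adjusted p = 0.11), where WT litters lay between 0.92 and 1.42 and Nlrx1-/- litter 1 overlapped them. Over the other fits the difference of Eif4e3 lay between -0.96 and -0.43. With the replicate number as a block, under which 2.14% of all genes were higher, Eif5a (limma, adjusted p = 0.0498) and Eif4a1 (limma, adjusted p = 0.042) passed, and in the other settings with limma that kept all libraries, 0 did. Without the 2 litters that stood apart, the median was 0.08, against 0.01 over all genes. There 9 of the 50 had an unadjusted p below 0.05, against 1262 of all 16707 genes.

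**Figure D3:**
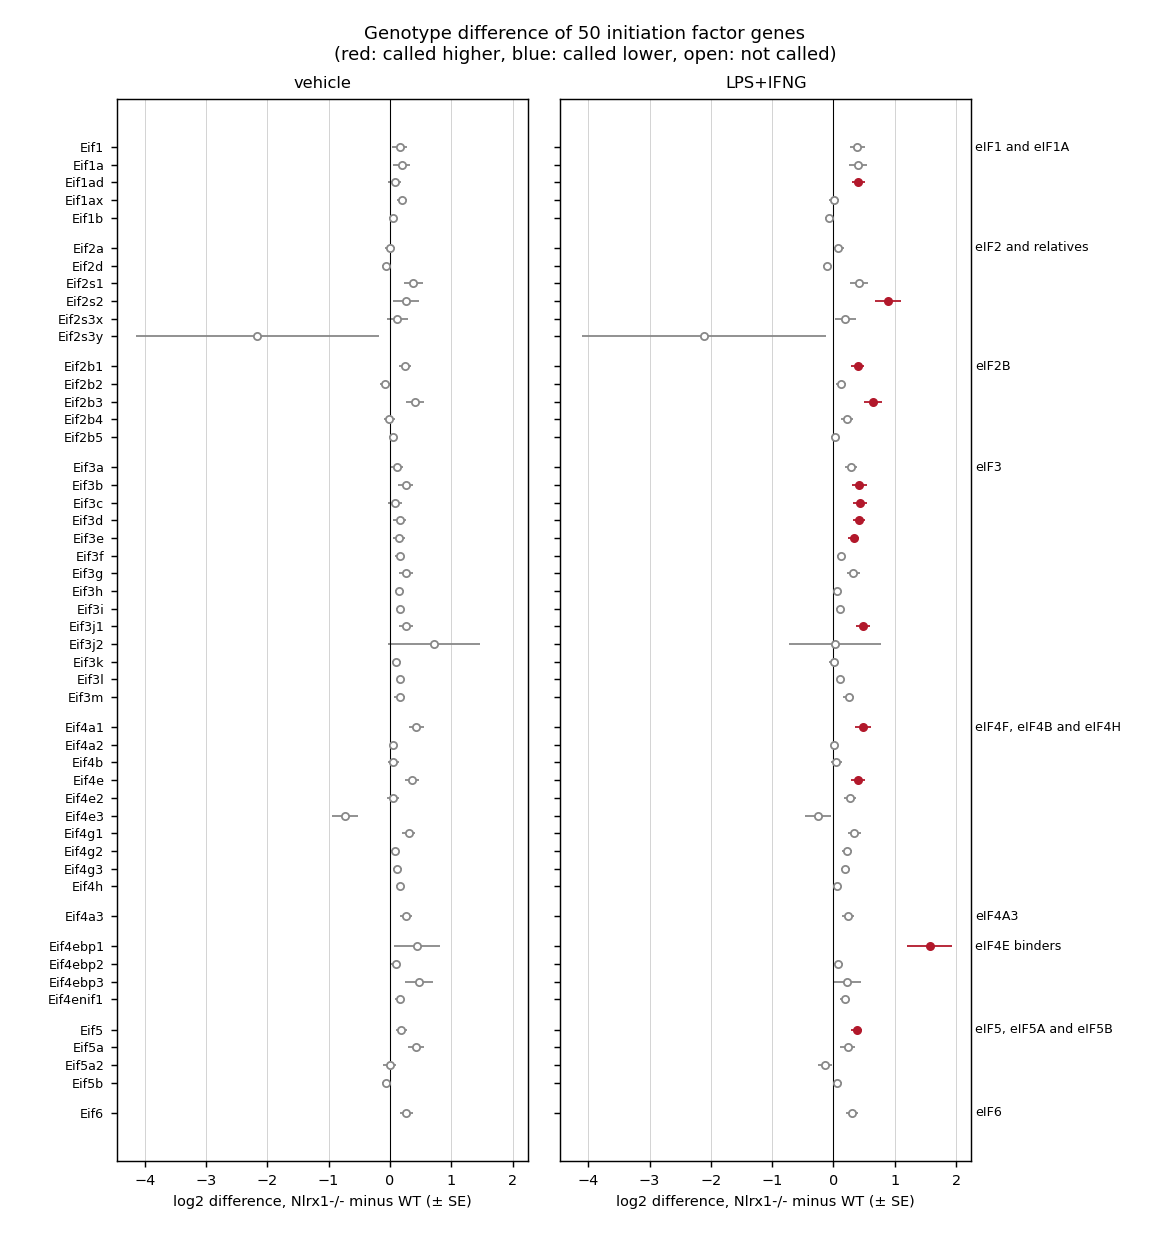
Log2 difference (± SE) between Nlrx1-/- and WT for each of the 50 genes in vehicle (left) and with LPS + IFNγ (right), grouped by complex, with filled points for genes that passed an adjusted p of 0.05 in limma. Most points lie right of 0 in both panels, 0 pass on the left and 13 on the right, and Eif2s3y has the widest error.

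With LPS + IFNγ, 13 of the 50 genes were higher in Nlrx1-/- astrocytes and 0 lower, against 4.40% and 4.41% of all genes. They were Eif4ebp1 (2.96-fold), Eif2s2 (1.85-fold), Eif2b3 (1.56-fold), the loosely bound eIF3 subunit Eif3j1 (1.40-fold), Eif4a1, Eif3c, Eif3b, Eif3d, Eif1ad, Eif4e, Eif2b1, Eif5 and Eif3e, the last 9 between 1.26-fold and 1.40-fold. The median log2 difference of the 50 was 0.22, against -0.00 over all genes, and 45 estimates were above 0. In 16 of the 50 the highest WT library lay below the lowest Nlrx1-/- library, against 7.09% of all genes, and in 0 the reverse, against 6.23%. An unadjusted p below 0.05 was reached by 27, all higher, against 29.6% of all genes in either direction and 14.6% higher.

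Eif4ebp1 differed by 1.57 ± 0.37 on the log2 scale (limma, adjusted p = 0.035). Its WT and Nlrx1-/- libraries overlapped, because Nlrx1-/- litter 3, at 5.02, lay below WT litter 1, at 5.15. Eif2s2 differed by 0.89 ± 0.21 (limma, adjusted p = 0.035), and Nlrx1-/- litter 3 again lay within the WT range. Eif2b3, the gamma subunit of eIF2B, was at 3.42, 3.41, 3.35 and 2.96 in WT and 3.86, 4.13, 3.70 and 4.03 in Nlrx1-/- cells with LPS + IFNγ, without overlap (0.64 ± 0.15, limma, adjusted p = 0.035). In vehicle it was at 2.87, 3.09, 2.78 and 2.97 in WT and 3.12, 3.67, 3.37 and 3.19 in Nlrx1-/- cells. Eif3j1 was at 6.37, 6.38, 6.34 and 6.06 against 6.72, 6.99, 6.52 and 6.87, also without overlap (0.49 ± 0.11, limma, adjusted p = 0.035), and in vehicle at 6.33, 6.37, 6.39 and 6.30 against 6.47, 6.96, 6.51 and 6.5.

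These calls came and went with the calls over all genes. With litters left out, there were 0 of the 50 without Nlrx1-/- litter 2, without Nlrx1-/- litter 4 and without both, and 0 without WT litter 2, 3 or 4, and all genes called in these fits fell from 1471 to between 1 and 3. With no litter left out, there were also 0 in the 8 treated libraries alone, where 1 gene was called in all, and 0 without the intensity trend, where 2 were. Leaving out WT litter 1 gave 14 of the 50 (5.81% of all genes higher), Nlrx1-/- litter 1 gave 9 (2.35%) and Nlrx1-/- litter 3 gave 23 (11.3%). Without both Nlrx1-/- litters 2 and 4 the log2 differences were 0.75 ± 0.24 for Eif4ebp1, 0.41 ± 0.13 for Eif2s2, 0.49 ± 0.16 for Eif2b3 and 0.33 ± 0.09 for Eif3j1, with limma adjusted p between 0.25 and 0.28, and the median of the 50 was 0.12. Astrocyte markers moved with this comparison, 5 of 9 being lower in Nlrx1-/- cells with LPS + IFNγ, from S100b (-2.22) to Aldoc (-0.63), as were Pdgfra (-0.83) of the oligodendrocyte lineage and Foxj1 (-0.57) of ependymal cells. The summed level of astrocyte markers was 5831 to 8837 CPM in the WT and 5039 to 6762 CPM in the Nlrx1-/- treated libraries, and 0 of the 9 was absent. Fewer cells of a type and less RNA per cell cannot be told apart in such libraries, and the part of this shift in the result was not tested. With a term for the Y-linked RNA of the litter the same 13 genes passed, and in vehicle 0 did.

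**Figure D4:**
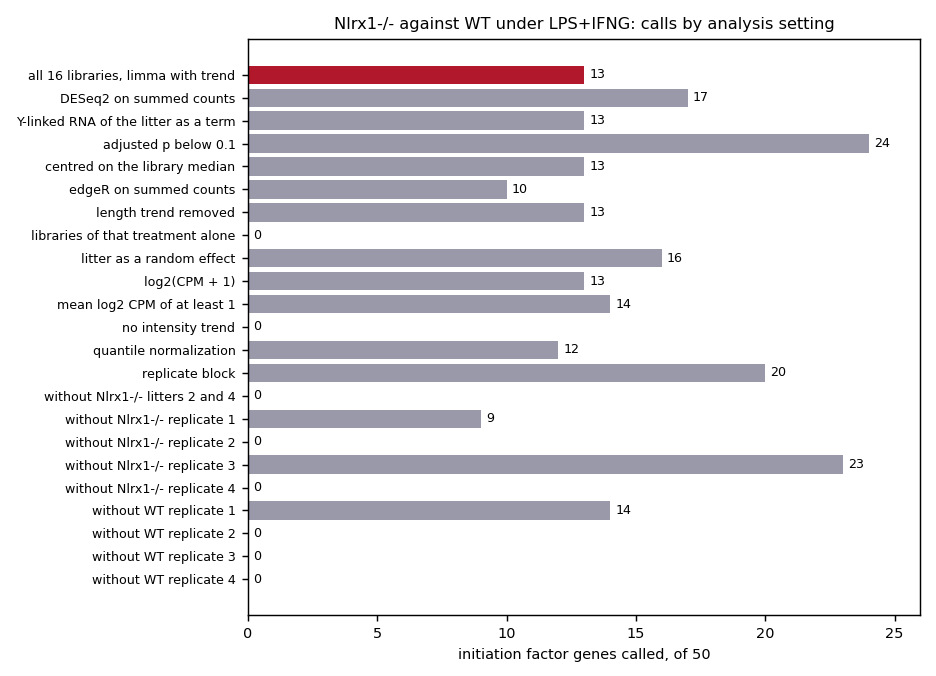
Number of the 50 genes called between Nlrx1-/- and WT with LPS + IFNγ under the reported fit (red, 13) and under each other setting (grey). The bars reach 24 at an adjusted p of 0.1 and are at 0 for 8 settings.

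The gamma subunit of eIF2 has a gene on each sex chromosome. Eif2s3y on chromosome Y was at 15.5, 11.7, 21.6 and 0.151 CPM in WT vehicle and 17.3, 13.4, 18.6 and 0.463 CPM in WT LPS + IFNγ. In Nlrx1-/- cells it was at 0, 1.0, 0.689 and 45.0 CPM in vehicle and 0.281, 0.66, 0.551 and 43.9 CPM with LPS + IFNγ. WT litters 1 to 3 and Nlrx1-/- litter 4 thus held it and the others nearly lacked it. Eif2s3x on chromosome X was lowest in Nlrx1-/- litter 4, at 235 and 285 CPM, and lay between 291 and 492 CPM in the other 14 libraries. Xist, the RNA that silences the second X chromosome, was at 4.78 and 2.73 CPM in the libraries of that litter and between 436 and 1532 CPM in all others. Eif2s3x did not pass in either genotype comparison (0.12 ± 0.17 in vehicle and 0.19 ± 0.17 with LPS + IFNγ, limma adjusted p = 0.72 and 0.46), and it rose with LPS + IFNγ in Nlrx1-/- litters (0.21 ± 0.05, limma, adjusted p = 0.0064).

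**Figure D5:**
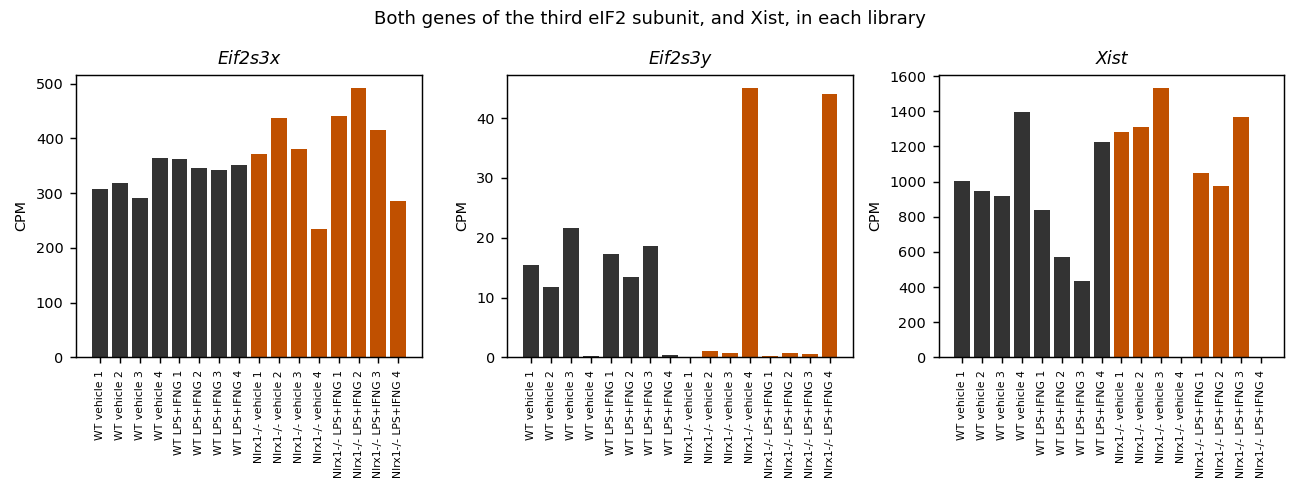
CPM of Eif2s3x, Eif2s3y and Xist in each of the 16 libraries, WT in black and Nlrx1-/- in orange. Nlrx1-/- litter 4 has the tallest bars of Eif2s3y, the lowest of Eif2s3x and nearly no Xist.

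Eif1, Eif1ax and Eif2b5 were not called, which does not show that they were alike between groups. Eif1 lay between 7.46 and 8.32 log2 CPM, Eif1ax between 7.02 and 7.44, and Eif2b5 between 5.79 and 6.13 over the 16 libraries, and each was called in 0 of the 5 comparisons. Eif5 lay between 8.12 and 8.82 and was called between genotypes with LPS + IFNγ alone, where it was at 8.30, 8.28, 8.23 and 8.12 in WT and 8.58, 8.82, 8.33 and 8.71 in Nlrx1-/- litters. Eif5b, the GTPase of subunit joining, lay between 6.36 and 6.81. It was called higher with LPS + IFNγ in Nlrx1-/- cells only, a call that held in 10 of 19 other fits. Eif3a lay between 8.32 and 8.98 and was called higher with LPS + IFNγ in both genotypes.

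Other genes of translation gave the setting. The counts stand against 24.9% of all genes called higher and 21.9% lower with LPS + IFNγ in WT. In Nlrx1-/- cells these shares were 26.6% and 25.5%, and between genotypes with LPS + IFNγ 4.40% and 4.41%. Of 8 eIF2 kinases, phosphatase subunits and stress targets, 3 rose in WT and 5 in Nlrx1-/- cells with LPS + IFNγ and 0 fell. Eif2ak2, the kinase PKR that senses double-stranded RNA, rose by 2.26 and 2.63 on the log2 scale, and Atf4 by 0.77 and 1.48, while Ddit3 rose by 1.56 in Nlrx1-/- cells and did not pass in WT (0.33). Between genotypes 0 of the 8 passed, with Atf4 at 1.00 with LPS + IFNγ (limma, adjusted p = 0.051). Of 13 genes of the mTOR and MNK axis, 6 rose and 1, Pdcd4, an inhibitor of eIF4A, fell in WT, and 5 rose and 1 fell in Nlrx1-/- cells. Larp1 of this list, which binds mRNAs of ribosomal proteins, was higher in Nlrx1-/- cells with LPS + IFNγ (0.55). Of 10 partners of initiation, 3 rose and 1 fell in WT and 7 rose and 1 fell in Nlrx1-/- cells, and Ltv1 (0.93), Abce1 (0.60) and Denr (0.34) were higher in Nlrx1-/- cells with LPS + IFNγ. Of 9 elongation and termination genes, 2 rose and 1 fell in WT, 3 rose and 1 fell in Nlrx1-/- cells, and 1, Gspt1 (0.35), was higher in Nlrx1-/- cells with LPS + IFNγ. In the interaction and between genotypes in vehicle 0 genes of the 4 lists passed in limma, against 0% and 0.00599% of all genes.

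Of the 9 genes with an E-box in a promoter window, 6 were higher with LPS + IFNγ in WT (Eif3k, Eif4a1, Eif4e, Eif4g1, Eif4h and Eif5a) and 4 in Nlrx1-/- cells. Of the 30 members with a window that lacks it, 8 were higher and 3 lower in WT, and 16 higher and 4 lower in Nlrx1-/- cells. Over all genes, 24.9% were called higher and 21.9% lower in WT, and 26.6% and 25.5% in Nlrx1-/- cells. The calls among all genes with an E-box were not counted. These are counts of few genes, and no factor's binding was measured.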

How the data were processed

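RNA of 16 astrocyte libraries was captured by poly-A and sequenced as paired ends without strand. The authors quantified RefSeq transcripts of GRCm39 with Salmon 1.7.0 and deposited for each transcript the estimated count, which is not normalized, the TPM and the lengths. The authors made length-scaled counts with tximport, filtered low genes, scaled by TMM and deposited per gene a CPM, which is a signal normalized to TMM-adjusted library sizes, and its log2 (finite where the CPM is 0). Groups came from the sample labels.

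The deposited log2 CPM of 16707 genes was tested with limma 3.58.1 (eBayes with trend, R 4.3.3), adjusted over all genes (Benjamini-Hochberg) at 0.05. It was preferred to counts because it holds all transcripts of a gene. Responses and interaction used litters as blocks within genotype, as in the study. Genotypes were compared over the 4 groups without litter terms, so both wells of a litter entered as separate libraries. The pairing comes from the design, in which the wells of a litter share their mice, and the libraries of a litter correlated at 0.07 to 0.35 (Pearson r of deviations across genes), against medians of -0.12 to -0.02 for other litters. For edgeR 4.0.16 and DESeq2 1.42.0 the estimated counts were rounded after summing over the 106430 of 129698 transcripts paired with a symbol, 96.7% to 97.3% of reads. The TPM was summed likewise, and levels between genes were compared on it alone. The precision follows from these read numbers and from the spread between litters. In the genotype fits it follows from the spread among the 4 wells of a group, each from its own litter. Fits were also run on simulated counts, in which each gene had its own random litter effects. No simulated litter stood apart over many genes, so these runs do not cover the case of Nlrx1-/- litters 2 and 4. Sums, promoter searches and plots used Python 3.11.15, pandas 2.3.3, numpy 2.4.6 and matplotlib 3.10.9.

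Members, gene lists and tests were chosen with earlier results of these data known. Library values are given for up to 4 called members per direction and comparison with the largest change, or for the 2 with the lowest p where 0 were called, and Eif1, Eif1ax, Eif2s1, Eif2s3x, Eif2s3y, Eif2b5, Eif3a, Eif4e, Eif4ebp1, Eif4a1, Eif4g1, Eif5, Eif5a, Eif5b and Eif6 are always given by level. Alternatives covered the test, scaling, log scale, filter, length trend, block, threshold and leaving out each litter.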

Additional observations from a re-analysis of the deposited data

Results flagged for a closer look

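Over 96 groups of 4 libraries, the levels of 24 members with values above were searched for a highest or lowest library whose gap to the next passed Dixon's 95% critical value, which chance gives in about 1 of 20 groups. Nlrx1-/- litter 2 was the highest vehicle library of its group for Eif4a1 (9.64 log2 CPM), Eif3a (8.76), Eif2s2 (7.31) and Eif3j1 (6.96). WT litter 4 was the lowest LPS + IFNγ library of its group for Eif3j1 (6.06 log2 CPM), Eif1ad (5.25) and Eif2b3 (2.96). Eif2s3y stood apart low in WT litter 4 in vehicle (-2.26 log2 CPM) and with LPS + IFNγ (-0.94), and high in Nlrx1-/- litter 4 with LPS + IFNγ (5.46). Single libraries stood apart for Eif5 in vehicle of WT litter 3 (8.24 log2 CPM, low) and for Eif5b with LPS + IFNγ in the same litter (6.73, high).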

How the results depend on the processing

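Of the counts of called genes, those for the response in Nlrx1-/- cells stayed within 1.5 times of 32 under every alternative run. The response in WT had 23 calls and, over the fits that leave out 1 litter, 15 to 25. The genotype comparison with LPS + IFNγ had 13 calls. It gave 24 at an adjusted p of 0.1, 20 with a replicate block, 0 without the intensity trend, 0 in the 8 libraries of that treatment alone, 0 without Nlrx1-/- litters 2 and 4 (added after seeing the data), and 0 to 23 when 1 litter was left out. In vehicle, with 0 calls, DESeq2 called 3 (448 of all genes higher and 253 lower) and the replicate block 2 (358 and 233). Fits without 1 litter called 0 to 2 there, with 688 of all genes higher and 930 lower without Nlrx1-/- litter 3. The interaction, with 0 calls, gave 1 with DESeq2 (121 of all genes higher and 224 lower) and 0 to 4 without 1 litter. The 4 came without Nlrx1-/- litter 3, where 378 of all genes were higher and 444 lower. The replicate number marks no shared litter between genotypes, so the block in the genotype fits is a number only. Without the replicate block the responses had 18 and 25 calls in WT and Nlrx1-/- cells, for which the share of all genes is not given here. Signs turned for Eif4e on the summed counts (response in WT -0.33 with edgeR and -0.36 with DESeq2, in Nlrx1-/- cells -0.00155 and -0.0104) and, with quantile normalization, for Eif3a (-0.0211) and Eif4h (-0.0129) in WT and for Eif3e (-0.0613) and Eif3m (-0.0113) in Nlrx1-/- cells. The summed counts miss a varying part of Eif4e reads, and the cause of the other changes was not tested. Depth limits Eif3j2, Eif4ebp3 and vehicle Eif4e3.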
